A study of Mus musculus with 48 samples.

Results

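The 8 genes described here stand at the gates of the cell cycle. They are *Wee1*, the kinase that holds back entry into mitosis, the CDK inhibitors *Cdkn1a* (p21) and *Cdkn1b* (p27), the cyclins *Ccnd1*, *Ccnd2* and *Ccne1*, the growth transcription factor *Myc*, and the DNA damage response gene *Gadd45a*. Their rows were found in the count table of mouse colon by their symbols in GENCODE M21, and all 8 were present among the 55401 genes listed and had enough counts to be tested. RNA was taken from the colon of 48 male mice on a C57BL/6J background, 18 to 20 weeks old, on day 2 of constant darkness, with 4 mice per genotype at each of 6 circadian times (CT1, CT5, CT9, CT13, CT17 and CT21). Bmal1iec-/- mice carried the floxed *Bmal1* gene and a Cre recombinase under the Villin promoter, which is active in the intestinal epithelium. Their control littermates (Bmal1fl/fl) carried the same floxed gene without Cre. The deletion is thus in epithelial cells, while the whole colon, with its muscle, stroma and immune cells, was sequenced. Tests were made over 46 mice, 24 control and 22 Bmal1iec-/-. The Bmal1iec-/- mice SV384 and SV385 at CT1 were left out, as in the normalization behind the study's own table of rhythms in control mice. Nothing in the labels says whether mice shared a litter or a batch of library preparation.

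Progress through the cell cycle depends on cyclin-dependent kinases (CDKs). D-type cyclins activate CDK4 and CDK6 in G1, cyclin E activates CDK2 at the start of DNA synthesis, and the p21 and p27 proteins bind and restrain these complexes. WEE1 adds an inhibitory phosphate to CDK1 and so keeps cells in G2 until CDC25 phosphatases remove it. *Myc* drives transcription of growth and ribosome genes, and *Gadd45a*, like *Cdkn1a*, is induced by p53 after DNA damage. In the liver *Wee1* is a textbook output of the circadian clock, transcribed from E-boxes that the BMAL1-CLOCK pair binds, and *Cdkn1a* is transcribed under the control of the Rev-erb and ROR receptors of the clock. The colon epithelium renews itself continuously from dividing crypt cells.

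The genes lie as follows on GRCm38. *Wee1* is at chromosome 7, 110122046 to 110143286, plus strand, *Cdkn1a* at chromosome 17, 29090976 to 29100727, plus strand, and *Cdkn1b* at chromosome 6, 134920401 to 134925513, plus strand. The cyclins are *Ccnd1* at chromosome 7, 144929931 to 144939925, minus strand, *Ccnd2* at chromosome 6, 127125162 to 127152193, minus strand, and *Ccne1* at chromosome 7, 38097984 to 38107534, minus strand. *Myc* is at chromosome 15, 61985391 to 61990374, plus strand, and *Gadd45a* at chromosome 6, 67035096 to 67037457, minus strand. RefSeq promoter windows (GRCm38.p6, 250 bases before to 50 after a gene start) were at hand for *Cdkn1a* (2 starts), *Cdkn1b*, *Ccne1* and *Gadd45a*, 5 windows in all. No window was at hand for *Wee1*, *Ccnd1*, *Ccnd2* or *Myc*, so these genes were not searched for any element. Stretches of 30 bases upstream of a start are printed to show the kind of element that each gate is known for, with the element in capitals. The p53-type element of the *Cdkn1a* start farthest upstream (chr17:29090923-29090952, plus strand) holds GAACATGT once on each strand. The CCAAT boxes of *Gadd45a* (chr6:67037476-67037505, minus strand) and *Cdkn1b* (chr6:134920354-134920383, plus strand) are shown beside the E-box of the clock-controlled gene *Bhlhe41* (chr6:145865556-145865585, minus strand) and the variant E-box of *Nr1d1* (chr11:98775388-98775417, minus strand), which encodes Rev-erb alpha and holds CACGTT on its other strand.
Cdkn1a: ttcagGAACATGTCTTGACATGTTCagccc
Gadd45a: aatttgcataacCCAATggcctgactgcat
Cdkn1b: ccggcgccgagaCCAATggagctcctcctc
Bhlhe41: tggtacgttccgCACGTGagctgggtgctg
Nr1d1: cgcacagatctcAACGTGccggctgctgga
The letters CACGTG, searched on both strands, occurred in 0 of the 5 member windows and in 7.15% of all 32851 windows, and CACGTT occurred in 0 of 5 and in 4.68%. GAACATGT occurred in 1 of 5 and in 0.670% of all windows, and CCAAT in 2 of 5 and in 37.4%. The 1 window with GAACATGT is that of *Cdkn1a* printed above, whose element holds these letters. That count was thus fixed in advance and shows no enrichment. The windows with CCAAT are likewise those printed for *Gadd45a* and *Cdkn1b*. These letters describe the windows only and say nothing of binding in these mice.

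Between 3144997 and 4785844 reads were counted on genes in each mouse. Values are given as normalized counts, which are read counts divided by DESeq2 size factors, and a fold change is Bmal1iec-/- minus control on the log2 scale. The deleted gene, listed as *Arntl*, was followed as a check of the labels. In control mice it fell from 260.0 ± 18.0 (SD, n = 4) at CT1 to 26.4 ± 8.81 (SD, n = 4) at CT9, whereas in Bmal1iec-/- mice it ran only from 177 ± 6.67 (SD, n = 2) at CT1 to 114 ± 31.1 (SD, n = 4) at CT9. Its log2 amplitude in a 24-h cosine fit was 1.75 in control and 0.23 in Bmal1iec-/- mice, a change of rhythm at adjusted p = 5.0e-13 (edgeR's quasi-likelihood test, Benjamini-Hochberg adjustment over 14475 genes). The count covers every exon and every cell type of the colon, so its mean level does not measure the deletion. Of the clock-controlled references, *Nr1d1* was lower over all times by a log2 fold change of -1.48 and *Dbp* by -0.88 (edgeR's quasi-likelihood test, adjusted p = 2.4e-13 and 8.2e-06). The fold changes of *Per2* (0.14), *Bhlhe40* (-0.11) and *Bhlhe41* (-0.17) did not pass the test.

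Read per kilobase of exon over the 24 control mice, the members ranked from *Cdkn1a*, at 132 ± 28.7 normalized counts per kb (SD), through *Cdkn1b* at 81.2 ± 9.08, *Ccnd2* at 59.7 ± 14.1, *Ccnd1* at 53.2 ± 14.1, *Gadd45a* at 50.4 ± 10.2, *Wee1* at 27.5 ± 6.15 and *Myc* at 24.5 ± 5.07 to *Ccne1* at 9.73 ± 2.75. The gaps between *Ccnd2* and *Ccnd1*, between *Ccnd1* and *Gadd45a* and between *Wee1* and *Myc* were smaller than the larger SD of the pair. In Bmal1iec-/- mice *Myc*, at 28.0 ± 5.43, stood above *Wee1*, at 21.5 ± 3.20. *Ccne1* rested on few reads, with raw counts from 13 to 41 per mouse, which limits how small a difference could be seen in it.

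*Wee1* was lower in Bmal1iec-/- colon during the circadian night, and no daily rhythm was called for it there. In control mice its mean climbed from CT5 to CT17. At CT1 the control mice had 85.4, 93.3, 57.8 and 74.8 normalized counts and the Bmal1iec-/- mice 75.2 and 80.2. At CT5 the control mice had 68.8, 64.3, 73.1 and 65.2 normalized counts and the Bmal1iec-/- mice 70.1, 76.9, 76.7 and 80.2. Up to this time the ranges of the genotypes overlapped, and SV384 and SV385, outside the tests, had 73.2 and 92.4 at CT1. At CT9 the control mice had 98.2, 91.2, 98.9 and 75.01 normalized counts and the Bmal1iec-/- mice 78.5, 60.1, 66.3 and 67.4. At CT13 the control mice had 132, 116, 100.1 and 104 normalized counts and the Bmal1iec-/- mice 78.3, 65.3, 84.5 and 67.8. At CT9 only the lowest control mouse fell among the Bmal1iec-/- mice, and at CT13 every Bmal1iec-/- mouse was below every control mouse. At CT17 the control mice had 118, 105, 119 and 135 normalized counts and the Bmal1iec-/- mice 93.2, 93.8, 89.2 and 69.2. At CT21 the control mice had 88.2, 102, 101 and 92.3 normalized counts and the Bmal1iec-/- mice 57.8, 71.4, 63.7 and 52.5. At both of these times the ranges again did not overlap. Among all genes tested 13.03% did not overlap at CT13, 4.77% at CT17 and 4.58% at CT21.

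**Figure D1:**
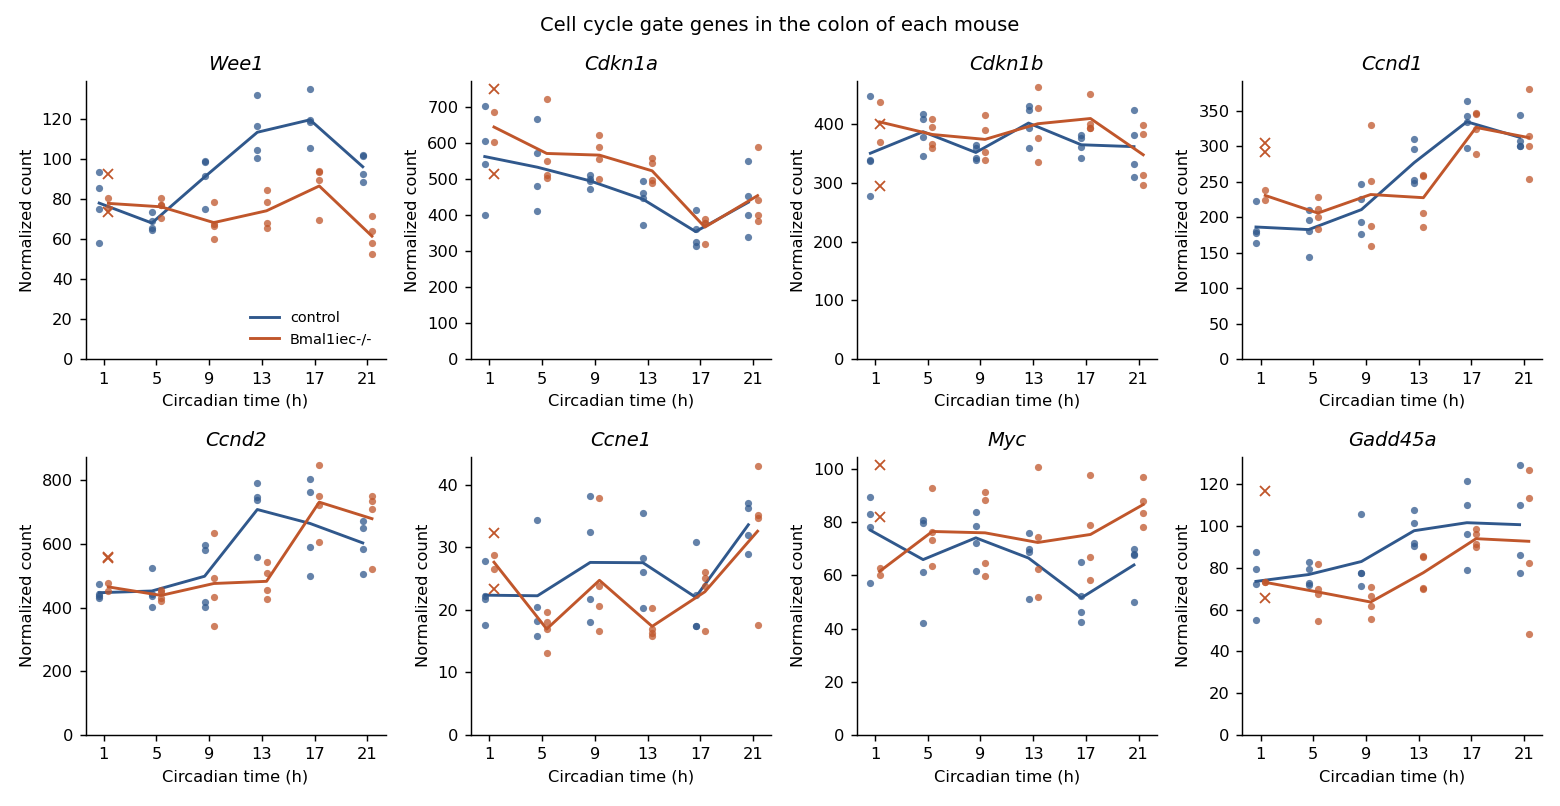
Normalized counts of the 8 genes (y axis, from 0) against circadian time in hours (x axis), 1 point per mouse, in blue for control and in orange for Bmal1iec-/- mice. Lines join group means over the 46 mice tested, and crosses are the Bmal1iec-/- mice SV384 and SV385, which are outside the means. *Wee1* separates the genotypes at CT13, CT17 and CT21, and *Ccnd2* at CT13.

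Ordered by level, the 12 groups ran from control CT17 at 119 ± 11.99 (SD, n = 4) and control CT13 at 113 ± 14.2 (SD, n = 4) down to control CT5 at 67.9 ± 4.003 (SD, n = 4) and Bmal1iec-/- CT21 at 61.3 ± 8.11 (SD, n = 4). The highest Bmal1iec-/- group, CT17, had 86.4 ± 11.6 (SD, n = 4) and came after the control groups of CT9 to CT21. Neighbours in this order differed by less than the larger of their SDs, except control CT13 against control CT21, whose means were 17.2 apart with a larger SD of 14.2.

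Averaged over the 6 times, *Wee1* had 94.2 ± 21.03 normalized counts in control (SD, n = 24) and 73.6 ± 10.95 in Bmal1iec-/- mice (SD, n = 22). Fitted with circadian time as a factor, the difference on the log2 scale was -0.36 (SE 0.067, 95% confidence interval -0.49 to -0.22, adjusted p = 1.2e-04), a level 21.9% lower (edgeR's quasi-likelihood test, Benjamini-Hochberg adjustment over 14475 genes). *Wee1* was the 1 member of 8 that passed this test, in which 11.1% of all genes tested passed in either direction and 5.64% were lower, so that the count of members called is close to the share of all genes. The difference was under the 1.5-fold threshold that 1.36% of genes passed together with the p threshold. The Bmal1iec-/- mean was the lower at 5 of 6 times, the exception being CT5. At CT1 this rests on leaving out SV384 and SV385, with which the mean was 80.2 against 77.8 in control.

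Tested at each time on its own with the same edgeR test, *Wee1* differed by a log2 fold change of -0.61 (SE 0.12, adjusted p = 0.0013) at CT13, where 4.72% of genes passed. It differed by -0.46 (SE 0.12, adjusted p = 0.0451) at CT17 and by -0.64 (SE 0.13, adjusted p = 0.0059) at CT21, against 1.11% and 0.394% of genes. The fold change at CT9 was -0.41 (SE 0.13, adjusted p = 0.107), where 1.82% passed. At CT1 it was -0.0052 (SE 0.16, adjusted p = 0.991) and at CT5 0.16 (SE 0.13, adjusted p = 0.970), with 1.51% and 0.456% of genes called. The CT1 comparison holds 2 Bmal1iec-/- mice. At each of CT17 and CT21 *Wee1* was the 1 member of 8 called. The call at CT17 lay close to the threshold, since leaving out any of 15 single mice ended it, with adjusted p up to 0.253, and so did adding SV384 and SV385 (0.0545). At CT21 the call was lost without the Bmal1iec-/- mouse SV471, at adjusted p = 0.0611.

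**Figure D2:**
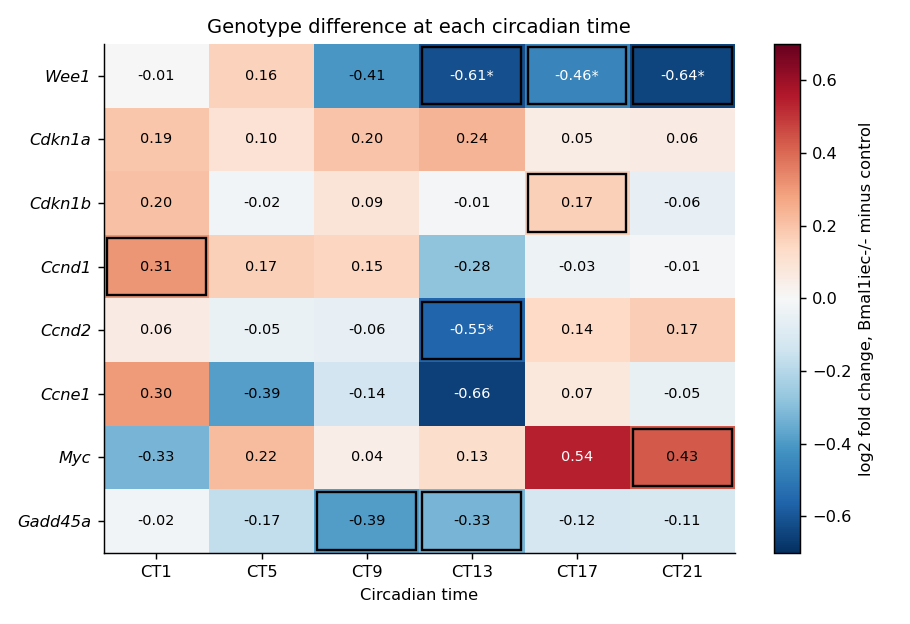
Log2 fold change, Bmal1iec-/- minus control, of each member (rows) at each circadian time (columns), from edgeR over 46 mice. An asterisk marks an adjusted p under 0.05, and a black frame marks groups whose ranges do not overlap. *Wee1* carries 3 of the 4 asterisks, with -0.61, -0.46 and -0.64, and *Ccnd2* the other, with -0.55.

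The *Wee1* rhythm was called in control mice only. JTK_cycle, a rank test for 24-h rhythms, gave adjusted p = 6.6e-08 in control mice with a peak at 16 h, and 1.0 in Bmal1iec-/- mice. The fitted cosine had a log2 amplitude of 0.39 in control, a peak 1.73 times the trough, against 0.058 and 1.08 times in Bmal1iec-/- mice. The difference between these curves was tested itself, as an interaction of genotype with cosine and sine in edgeR, and narrowly missed the threshold (adjusted p = 0.0680). It passed over all 48 mice (0.0226), in DESeq2 (0.0409), with time as a factor (0.0469), and without CT9 (0.0411), CT17 (0.0255) or CT21 (0.0298). It did not pass with no filter on low counts (0.139) or without CT1 (0.223), CT5 (0.679) or CT13 (0.453), all adjusted p. In this test 0.94% of genes passed, and 0 of the 8 members did by edgeR, with 3 at an unadjusted p under 0.05 (*Wee1*, *Ccnd2* and *Ccnd1*) and 1 called by DESeq2 (*Wee1*).

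Neither CDK inhibitor passed the genotype test, and only *Cdkn1a* was rhythmic. *Cdkn1a*, which encodes p21, ran from 315 to 704, with a median of 467 normalized counts, in control mice and from 319.7 to 721, with a median of 506, in Bmal1iec-/- mice. The ranges overlapped, and the Bmal1iec-/- mean was the higher at 6 of 6 times. Its log2 fold change was 0.14 (SE 0.060, 95% confidence interval 0.017 to 0.26, adjusted p = 0.138) in edgeR, which did not pass the test. Its daily course was opposite to that of *Wee1*, highest at CT1, where the control mice had 604, 541, 704 and 399.3 normalized counts and the Bmal1iec-/- mice 602 and 686, and lowest at CT17, where the control mice had 315, 414, 361 and 325 and the Bmal1iec-/- mice 378, 377, 319.7 and 390.0. Only the lowest control mouse of CT1 fell within the CT17 range of its genotype. JTK_cycle called this rhythm in both genotypes (adjusted p = 0.0045 and 0.0027), with log2 cosine amplitudes of 0.29 and 0.30. No change of rhythm was called for it (adjusted p = 0.931 in edgeR).

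*Cdkn1b*, which encodes p27 and marks cells that leave the cycle, had the smallest fitted amplitude of the members in control mice, 0.046 on the log2 scale. Its normalized counts ran from 277 to 447.7, with a median of 363, in control mice and from 296 to 464, with a median of 391, in Bmal1iec-/- mice. The group means stayed between 348 ± 50.3 (SD, n = 4) and 409 ± 28.0 (SD, n = 4) across all 12 groups, and JTK_cycle called no rhythm in either genotype (adjusted p = 1.0 in both). The log2 fold change over all times was 0.055 (SE 0.046, 95% confidence interval -0.037 to 0.15, adjusted p = 0.504) in edgeR. At CT17 the control mice had 381, 376, 342 and 361 normalized counts and the Bmal1iec-/- mice 393, 400.6, 393 and 451. These ranges did not overlap, as for 4.77% of all genes at CT17, and the fold change of 0.17 did not pass the test there (adjusted p = 0.826 in edgeR).

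Both D-type cyclins were rhythmic with a night-time peak in each genotype. *Ccnd1* went in control mice from 182 ± 28.2 (SD, n = 4) at CT5 to 334 ± 27.9 (SD, n = 4) at CT17, and in Bmal1iec-/- mice from 206 ± 19.2 (SD, n = 4) to 326 ± 26.6 (SD, n = 4) at the same times. JTK_cycle called both rhythms (adjusted p = 3.4e-05 and 0.0027), the Bmal1iec-/- one not with Benjamini-Hochberg q over all genes (q = 0.0562). Over all times its log2 fold change was 0.030 (SE 0.063, 95% confidence interval -0.098 to 0.16, adjusted p = 0.830) in edgeR. At CT1 the control mice had 178, 179.8, 164 and 222 normalized counts and the Bmal1iec-/- mice 223 and 237. The ranges did not overlap, but with only 2 Bmal1iec-/- mice this held for 31.0% of all genes at CT1, and the fold change of 0.31 did not pass (adjusted p = 0.395 in edgeR). SV384 and SV385 had 304 and 291 normalized counts, higher than the other 6 mice of CT1, and with them the fold change was 0.50 at adjusted p = 0.0150, in a fit in which 3593 genes were called at CT1 in place of 218. *Ccnd1* shares 1100 bases of exon with LTO1 on the opposite strand, and whether the counting used strand is not given in the sources used here, so reads of that stretch may be missing from its count or belong to either gene.

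*Ccnd2* was lower in Bmal1iec-/- than in control mice at CT13, the only time at which it passed the test. At CT9 the control mice had 416.3, 595, 400.9 and 581 normalized counts and the Bmal1iec-/- mice 633, 493, 342 and 435. At CT13 the control mice had 738, 791, 558 and 746 normalized counts and the Bmal1iec-/- mice 507, 425, 455.3 and 542. At CT17 the control mice had 805, 499, 590.4 and 763 normalized counts and the Bmal1iec-/- mice 849, 605, 751 and 721. Every control mouse of CT13 was above every Bmal1iec-/- mouse, whereas the ranges overlapped at CT9 and CT17. The log2 fold change was -0.55 at CT13 (SE 0.15, adjusted p = 0.0177 in edgeR), with ranges that did not overlap, as for 13.03% of genes at that time. At CT17 it was 0.14 (adjusted p = 0.939 in edgeR) and over all times -0.054 (SE 0.069, 95% confidence interval -0.19 to 0.085, adjusted p = 0.692). *Ccnd2* and *Wee1* were the 2 members of 8 called at CT13, against 4.72% of all genes. The *Ccnd2* call at CT13 was lost without the control mouse SV396, SV397 or SV424 or the Bmal1iec-/- mouse SV448 or SV449, with adjusted p up to 0.0740. Both genotypes were rhythmic by JTK_cycle (adjusted p = 0.0015 and 2.8e-04), with similar cosine amplitudes (0.36 and 0.36 on the log2 scale) and peaks at 15.8 h and 18.7 h. The change of rhythm did not pass (adjusted p = 0.349 in edgeR).

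*Ccne1*, the cyclin of the start of DNA synthesis, had the lowest level per kb of the members. It ran from 15.9 to 38.2, with a median of 24.2, in control and from 13.1 to 43.0, with a median of 20.4, in Bmal1iec-/- mice. Its log2 fold change was -0.16 (SE 0.11, 95% confidence interval -0.39 to 0.066, adjusted p = 0.410) over all times in edgeR. The fold change with the largest size at a single time was -0.66 at CT13 (SE 0.27, adjusted p = 0.165 in edgeR), where the ranges overlapped. No rhythm was called for it in control (adjusted p = 1.0) or Bmal1iec-/- mice (0.180).

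For *Myc* no genotype difference passed the test, although its Bmal1iec-/- values lay higher at most times. It had 66.5 ± 13.8 normalized counts in control (SD, n = 24) and 76.0 ± 14.7 in Bmal1iec-/- mice (SD, n = 22), with the Bmal1iec-/- mean higher at 5 of 6 times. The log2 fold change was 0.20 (SE 0.086, 95% confidence interval 0.030 to 0.38, adjusted p = 0.125) in edgeR. At CT17 the control mice had 65.0, 42.6, 52.3 and 46.3 normalized counts and the Bmal1iec-/- mice 79.0, 97.7, 66.9 and 58.2. At CT21 the control mice had 70.0, 67.6, 67.9 and 50.2 normalized counts and the Bmal1iec-/- mice 97.1, 83.4, 88.0 and 78.2. The ranges overlapped at CT17 and not at CT21, where 4.58% of genes did not overlap. The fold changes of 0.54 at CT17 and 0.43 at CT21 did not pass (adjusted p = 0.296 and 0.524 in edgeR). Without CT1 the difference over all times reached adjusted p = 0.0456, at a log2 fold change of 0.27. JTK_cycle called no *Myc* rhythm in control (adjusted p = 0.107) or Bmal1iec-/- mice (1.0).

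*Gadd45a* had a lower mean in Bmal1iec-/- mice at 6 of 6 times among the mice tested. At CT1 the means were close. The control mice had 73.5 ± 13.8 (SD, n = 4) and the Bmal1iec-/- mice 73.0 ± 0.0318 (SD, n = 2), and with SV384 and SV385 the latter was 82.2 (n = 4), the higher of the 2. At CT9 the control mice had 77.6, 71.1, 77.6 and 106 normalized counts and the Bmal1iec-/- mice 55.4, 61.9, 66.3 and 70.8. At CT13 the control mice had 90.3, 101, 91.8 and 108 normalized counts and the Bmal1iec-/- mice 85.6, 70.1, 85.3 and 69.6. At both times every Bmal1iec-/- mouse was below every control mouse, as 4.20% and 13.03% of all genes did not overlap in either direction. The fold changes there, -0.39 and -0.33, did not pass (adjusted p = 0.443 and 0.339 in edgeR). Over all times the log2 fold change was -0.20 (SE 0.075, 95% confidence interval -0.35 to -0.048, adjusted p = 0.0787) in edgeR. It passed when the control mouse SV417 or SV434 or the Bmal1iec-/- mouse SV445 or SV470 was left out (adjusted p down to 0.0292), and without CT21 (0.0245). Rhythms were called in both genotypes by JTK_cycle (adjusted p = 0.0213 and 0.0027), the control one not without SV398 or SV438 (up to 0.0571). *Gadd45a* shares 337 bases of exon with the opposite-strand transcript E230016M11Rik.

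Over the members as a set, 5 of 8 were rhythmic in control and 4 in Bmal1iec-/- mice by JTK_cycle, with p adjusted over the phases tested. With Benjamini-Hochberg q over all genes 4 were called in control, without *Gadd45a* (q = 0.107), and 1 in Bmal1iec-/- mice, *Ccnd2*, with *Cdkn1a*, *Ccnd1* and *Gadd45a* at q = 0.0562. Of all 32471 genes with a count, 24.1% and 14.2% were called, and of the 14475 genes with enough counts, as the members have, 50.0% and 29.3%. *Cdkn1a*, *Ccnd1*, *Ccnd2* and *Gadd45a* were rhythmic in both genotypes, as were 23.4% of those genes, and *Wee1* in control alone, as were 26.6%. The members thus split into a single day-peaking gene, *Cdkn1a*, and a night-peaking group of *Wee1*, *Ccnd1*, *Ccnd2* and *Gadd45a*, with control peaks between 15.7 and 17.1 h in the cosine fit. In the 4 genes rhythmic in both genotypes the fitted peak came later in Bmal1iec-/- mice, by 1.13 h for *Cdkn1a*, 1.75 h for *Ccnd1*, 2.49 h for *Gadd45a* and 2.95 h for *Ccnd2*. Of all 3389 genes rhythmic in both, 79.0% peaked later, with a median of 1.12 h, so a later peak was not particular to the members. Over all 48 mice the 4 shifts were 0.715 to 3.10 h.

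**Figure D3:**
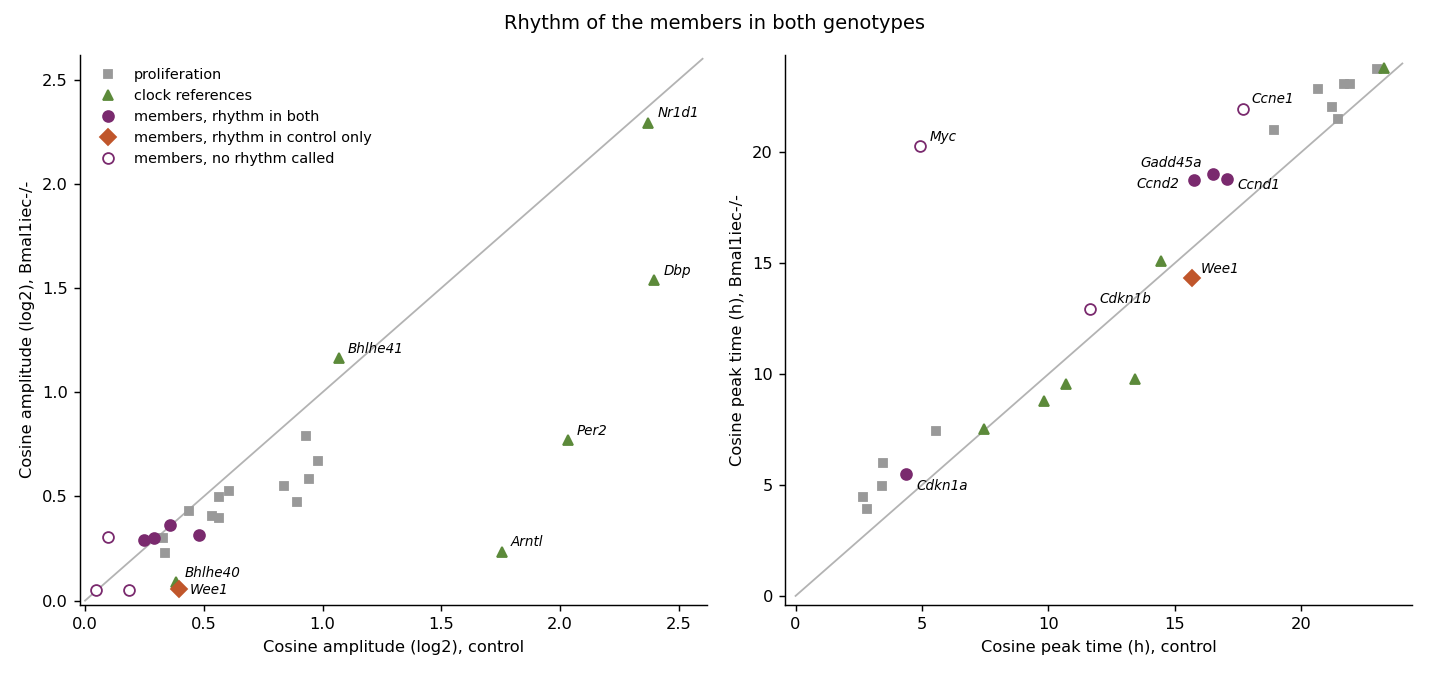
Left, log2 amplitude of the 24-h cosine fit in control (x axis) and Bmal1iec-/- mice (y axis); right, fitted peak time in hours on the same axes, with the line of equality in grey. Members are purple or orange, the 6 clock references green triangles and the 12 proliferation genes grey squares. *Wee1*, beside *Bhlhe40*, has an amplitude of 0.39 in control and 0.058 in Bmal1iec-/- mice, and the 4 members rhythmic in both lie above the line in peak time.

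The pathway around the members was read from 7 further lists, 99 genes of which 97 could be tested. Between genotypes 3 of them were higher in Bmal1iec-/- mice and 5 lower (edgeR's quasi-likelihood test, adjusted p under 0.05), beside 11.1% of all genes, and their median log2 fold change was 0.054 against 0.00489 over all genes. The smallest adjusted p was that of *E2f2*, an activator of the genes of DNA synthesis, with a log2 fold change of 0.88 (SE 0.12, 95% confidence interval 0.64 to 1.11, adjusted p = 1.7e-07). It ran from 20.2 to 138, with a median of 73.2, in control and from 69.0 to 171, with a median of 123, in Bmal1iec-/- mice, and it was higher at 6 of 6 times. Its rhythm changed too, from a log2 amplitude of 0.87 in control to 0.17 (adjusted p = 0.0020 in edgeR). Higher as well were *Cdkn2b* (p15, an inhibitor of CDK4 and CDK6), with 0.30 (SE 0.077, 95% confidence interval 0.14 to 0.45, adjusted p = 0.0063), and *E2f4*, a repressor of the same gene class, with 0.10 (SE 0.033, 95% confidence interval 0.034 to 0.17, adjusted p = 0.0388). The *E2f4* call was lost under each other setting of the test tried except that with all 48 mice, and without any of 27 single mice.

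Lower were *Cdkn1c* (p57, of the same family as p21 and p27) at -0.59 (SE 0.093, 95% confidence interval -0.78 to -0.41, adjusted p = 6.3e-06), the p53-inducible kinase *Plk3* at -0.76 (SE 0.13, 95% confidence interval -1.03 to -0.50, adjusted p = 3.4e-05), and the WEE1-opposing phosphatase *Cdc25b* at -0.32 (SE 0.063, 95% confidence interval -0.45 to -0.20, adjusted p = 2.5e-04), all log2 fold changes from edgeR. The other 2 lower genes, named after their values were seen so that the count is complete, were the *Myc* partner *Max* at -0.19 and the retinoblastoma gene *Rb1* at -0.20. Of the G2/M gate around *Wee1*, 1 of 9 genes, *Cdc25b*, was lower and 0 higher. That count is close to the 11.1% of all genes called in either direction. *Wee1* and *Cdc25b* act in opposite directions on CDK1, and both were lower. Of the 15 *Myc* target genes 0 passed in edgeR or DESeq2 and 6 had an unadjusted p under 0.05, and all 15 had a fold change above 0, with a median of 0.090. This was not particular to them, since all 12 proliferation genes were above 0 as well, with a median of 0.062. Of all 14475 genes tested, 7512 were above 0. Of the 20 p53 and p53 target genes, *Plk3* alone passed, beside 11.1% of all genes, and the median was -0.032.

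Genes of dividing cells were called rhythmic in both genotypes. All 12 proliferation genes, among them *Mki67* and *Top2a*, were rhythmic in both genotypes by JTK_cycle, as were 23.4% of all genes with enough counts. In the genotype test 0 passed in edgeR or DESeq2 (1 at an unadjusted p under 0.05), beside 11.1% of all genes in edgeR. Their median log2 amplitude was 0.58 in control and 0.49 in Bmal1iec-/- mice. Their change of rhythm passed for 0 of 12 in edgeR and 1 in DESeq2, with 6 at an unadjusted p under 0.05. As for 79.0% of all genes rhythmic in both, fitted peaks came later in Bmal1iec-/- mice, here for 12 of 12. The median shift was 1.46 h, against 1.12 h over all those genes, and 11 of the 12 were later without CT1. The summed level of the 12 proliferation genes was highest at CT1, with 3368 ± 782 normalized counts in control (SD, n = 4). It was lowest at CT13, with 1510.1 ± 97.6 in control and 1853 ± 174 in Bmal1iec-/- mice (SD, n = 4 each). At CT13, the time of the *Wee1* and *Ccnd2* calls, 2 of the 12 passed the genotype test in edgeR, where 4.72% of all genes passed. As many passed in DESeq2, and 5 had an unadjusted p under 0.05. The part of cell division in the *Wee1* and *Ccnd2* calls was not tested. *Cdkn1a* had its highest control mean at the same time, CT1, and *Wee1*, *Ccnd1*, *Ccnd2* and *Gadd45a* had theirs at CT13 or CT17. In the *Myc* network 9 of 11 genes were rhythmic in control and 2 in Bmal1iec-/- mice, and of the 20 p53 genes 13 and 5, beside 50.0% and 29.3% of all genes with enough counts. The change of rhythm itself passed for 0 genes of the *Myc* network and 0 of the p53 list in both edgeR and DESeq2, with 2 and 4 at an unadjusted p under 0.05, so these counts of calls do not show that the rhythms differed. Besides *E2f2* it passed for *Ldha*, the lactate dehydrogenase gene, and for the mitotic cyclin *Ccnb1* (adjusted p = 0.0180 and 0.0349 in edgeR). The *Ldha* amplitude went from 0.33 to 0.17 on the log2 scale, and the *Ccnb1* peak from 4.67 to 7.08 h. The *Ccnb1* call did not hold without CT1, CT5, CT13 or CT17 (adjusted p = 0.622, 0.0975, 0.606 and 0.0679), with time as a factor (0.134) or without any of 14 single mice. The *Ldha* call did not hold without CT1, CT13, CT17 or CT21 (0.149, 0.133, 0.104 and 0.0546) or with no filter on low counts (0.109).

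**Figure D4:**
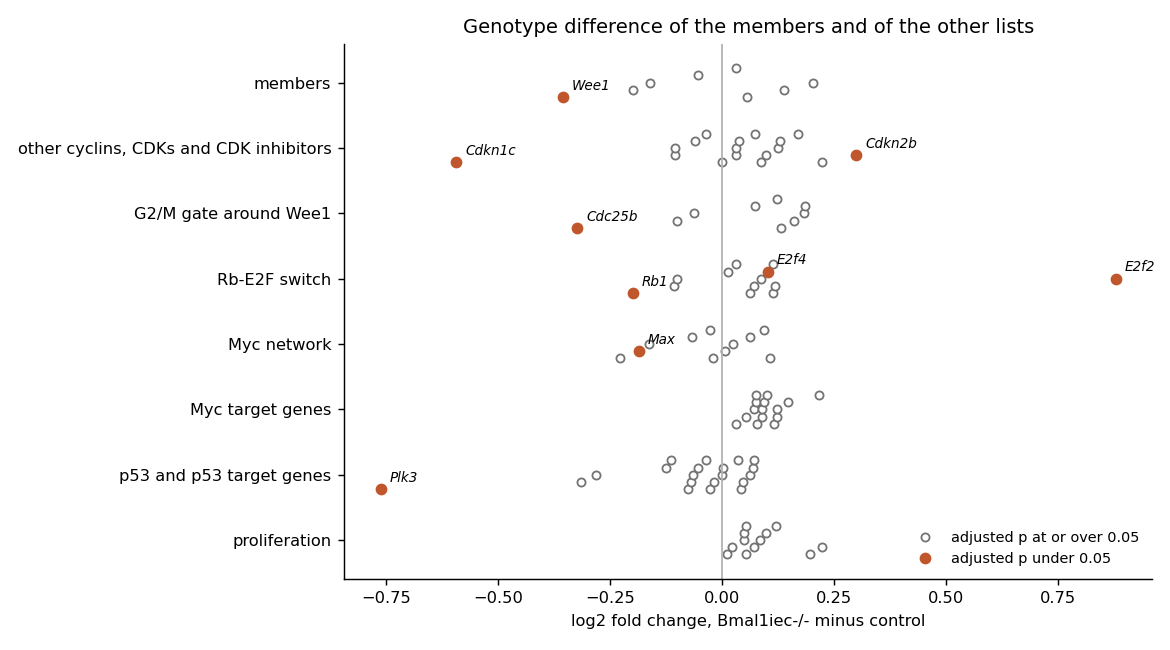
Log2 fold change, Bmal1iec-/- minus control, over all circadian times (x axis) of the members and of the 7 further lists (y axis), 1 point per gene. Filled points passed the edgeR test at an adjusted p under 0.05, and open points did not; vertical offsets within a list only keep points apart. Most points lie close to 0, *Wee1* is the filled point of the members, and *E2f2* is the rightmost point at 0.88.

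The genes whose pattern was most like that of *Wee1* were sought by the Pearson correlation of log2 group means over the 12 groups of genotype and time. They were *Rev1*, a polymerase that copies past DNA lesions (0.905), *Fbxo3* (0.905), *Gprasp2* (0.893), the protease gene *Ctss* (0.887) and the dipeptidase gene *Cndp2* (0.873). Of these, *Rev1* (-0.34), *Fbxo3* (-0.28), *Ctss* (-0.30) and *Cndp2* (-0.36) were lower in Bmal1iec-/- mice by edgeR, in log2 fold change, while *Gprasp2* (-0.24) did not pass. The pattern by which they were picked holds the genotype difference of *Wee1* itself. Lower levels in the same mice therefore follow from the choice and are no separate result. For *Cdkn1a* they were *Med30* (0.956), *Cyb5rl* (0.941), *Uap1* (0.940), *Spag7* (0.937) and *Foxm1* (0.934), the transcription factor of mitotic genes. Among the members, *Wee1* correlated with *Gadd45a* at 0.647 and with *Cdkn1a* at -0.600, and *Cdkn1a* with *Ccnd2* at -0.874, *Gadd45a* at -0.868 and *Ccnd1* at -0.815. These 12 points share their libraries between genes, and the correlations are given as a description.

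**Figure D5:**
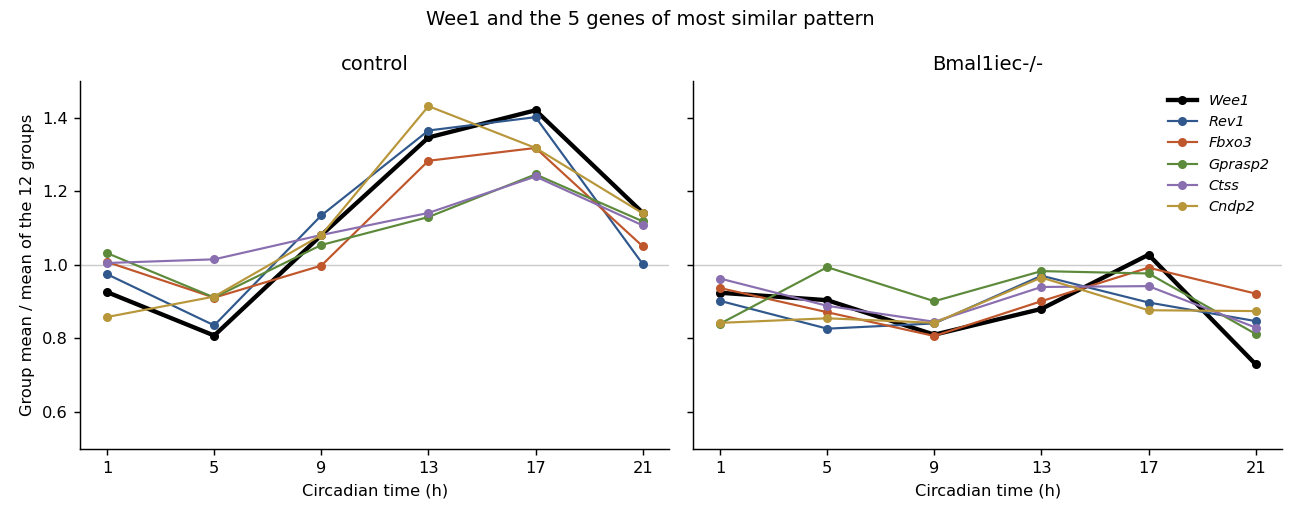
Group means of *Wee1* (black) and of the 5 genes of most similar pattern, each divided by the gene's mean over the 12 groups (y axis, which starts at 0.5), against circadian time in hours (x axis), for control (left) and Bmal1iec-/- mice (right). All 6 curves exceed 1 at CT13 and CT17 in control mice and run from 0.730 to 1.03 in Bmal1iec-/- mice.

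In whole colon, fewer cells of a type and less RNA per cell cannot be told apart. The summed level of the 8 epithelium markers, of which 3 were higher and 2 lower by the edgeR test, ran from 49989 to 75746 in control and 52922 to 74326 in Bmal1iec-/- mice, so the tissue carried its epithelium in both genotypes. Among all genes tested 11.1% were called by edgeR, the share beside which the edgeR counts of each marker list stand. The 6 smooth muscle markers summed to 13648 to 21703 in control and 12165 to 20074 in Bmal1iec-/- mice, and 2 of them were lower in edgeR and 3 in DESeq2. All 6 had a fold change below 0, with a median of -0.19 on the log2 scale, and all 6 an unadjusted p under 0.05, beside the lower *Wee1*. Of all 14475 genes tested, 6963 had a fold change below 0. The 6 fibroblast markers, 1 of them lower in edgeR and in DESeq2 and 2 at an unadjusted p under 0.05, summed to 3817 to 6412 in control and 3386 to 6683 in Bmal1iec-/- mice, and all 6 had a fold change below 0, with a median of -0.13. Of the 6 crypt stem cell markers 1 was lower, and of the 6 goblet cell markers 2 were higher and 1 lower. Of the 13 T cell, B and plasma cell and macrophage markers tested 0 passed in edgeR or DESeq2, with 2 at an unadjusted p under 0.05. All 4 T cell markers tested had a log2 fold change below 0 (median -0.25), as did 5 of 6 macrophage markers (-0.076). Of the B and plasma cell markers 2 of 3 lay above 0 (0.15). At CT13, where *Wee1* and *Ccnd2* were lower, fibroblast markers summed to 4370.4 ± 530.2 in control and 3607 ± 165 in Bmal1iec-/- mice (SD, n = 4 each), and epithelium markers to 63339 ± 3649 and 56612 ± 2728. Smooth muscle sums at CT13 were, in the same order, 15781 ± 1376 and 14015 ± 1539. At CT17 fibroblast sums were 4603 ± 612 and 4440 ± 600, and epithelium sums 58171 ± 4839 and 57343 ± 1767. Smooth muscle sums were 16033 ± 2488 and 14996 ± 1988 at CT17, and 19159 ± 2247 and 16446 ± 1308 at CT21. At CT21 fibroblast sums were 5279 ± 747 and 5029 ± 127, and epithelium sums 58346 ± 1844 and 62891 ± 4399. No marker gene was at 0 in every mouse. The part of the cell mixture in the differences of *Wee1* and *Ccnd2* was not tested.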

How the data were processed

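Colon RNA was sequenced from 48 mice as paired-end reads from stranded mRNA libraries. As the study's methods and the submitters' processing notes state, the authors checked reads with FastQC 0.11.5, filtered samples of low quality, trimmed with Trimmomatic 0.39, aligned to mm10 with STAR 2.7.5c, used SAMtools 1.3.1 and counted exon reads per gene with featureCounts 1.4.6, leaving out reads that overlap several features. The strand setting is not given in the sources used here. The deposited table holds the authors' raw read counts for 55401 genes, without normalization, and symbols came from GENCODE M21 for 55141 of them. The authors tested with DESeq2 1.22.0.

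The 8 members and all lists were chosen with earlier results of these data known. Mice were grouped by genotype and circadian time from their labels, and SV384 and SV385 were left out of the main tests. Counts were tested in R 4.3.3 with edgeR 4.0.16 (TMM, filterByExpr, quasi-likelihood F test, Benjamini-Hochberg adjustment over 14475 genes, threshold 0.05). Genotype was fitted with time as a factor, then at each time from group means, and the change of rhythm as genotype by 24-h cosine and sine. Rhythms were called per genotype by JTK_cycle, written for this purpose (12 phases in steps of 2 h, exact null, Bonferroni adjustment), for the 32471 genes with at least 1 count, after division by size factors of DESeq2 1.42.0. Tables and figures used Python 3.11.15, with matplotlib 3.10.9, scipy 1.17.1, pandas 2.3.3 and numpy 2.4.6.

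On simulated data with 200 of 14475 genes changed, a 2-fold genotype difference was recovered for 98.0%, the same fold at a single time for 77.4%, and loss of a rhythm of relative amplitude 0.6 for 93.0%. All members differed by less than 2-fold between genotypes, over all times and at each single time. For *Wee1* the log2 fold change over all times was -0.36 and the log2 amplitude in control mice 0.39. Recovery of differences and rhythms of these smaller sizes was not tested. Totals of 3144997 to 4785844 reads per mouse limit the low genes most. Alternatives were all 48 mice, DESeq2, no filter on low counts, no time term, a cosine in place of time, glmTreat, Benjamini-Hochberg q-values or log2 CPM for JTK_cycle, and leaving out each time or mouse. Besides the members, the deleted gene, 5 clock references, the 3 list genes of lowest adjusted p among those higher, those lower and those changed in rhythm, and the 5 genes most like *Wee1* and *Cdkn1a* were named. The authors' own fold changes and p-values were not used.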

Additional observations from a re-analysis of the deposited data

Results flagged for a closer look

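Of 88 groups of 4 mice examined over the 8 members, 2 held a mouse far from the other 3, where chance alone gives about 1 group in 20. The Bmal1iec-/- mouse SV481 had 451 normalized counts of *Cdkn1b* at CT17, against 393 to 400.6 in the others. The control mouse SV476 had 50.2 normalized counts of *Myc* at CT21, against 67.6 to 70.0.

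The change of rhythm between genotypes passed edgeR's quasi-likelihood test for *Arntl* (adjusted p = 5.0e-13), *Per2* (5.9e-07) and, close to the threshold, *Dbp* (0.0485). The *Dbp* call was lost without any 1 of the 6 circadian times (adjusted p = 0.0548 to 0.409) and without any of 26 single mice. Of the lists around the members it passed for *E2f2* (adjusted p = 0.0020), *Ldha* (0.0180) and *Ccnb1* (0.0349). For *E2f2* it did not pass without CT9 (adjusted p = 0.0528) or CT21 (0.0758). With no time term the genotype difference of *Dbp* did not pass (adjusted p = 0.140).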

How the results depend on the processing

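No paired analysis was possible because the mouse numbers of the labels are not shared between groups. Of 316 values of the members under alternatives other than leaving out 1 mouse, 296 kept their direction and their side of the threshold, 7 lost and 9 gained the call, and 4 turned direction. With 1 mouse left out 1609 of 1656 were kept. The cause of the changes was not tested.

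The count of genes that differed between genotypes, 1605, was 819 with no time term and 51 against a fold change of 1.5 by glmTreat, by which *Wee1* was not called (adjusted p = 1.0). It ran from 1457 to 1647 with 1 mouse left out. Past the fold change of 1.5 there were 197 genes, 319 with no filter on low counts, and 188 to 213 with 1 mouse left out. At CT1 the count of 218 became 3593 with all 48 mice, 349 in DESeq2 and 621 with no filter, and 12 to 322 with 1 mouse left out, moving most without SV454, SV455, SV468, SV479 or SV480. No filter gave 224 at CT5, 456 at CT9, 349 at CT17 and 302 at CT21. Leaving out 1 mouse gave 38 to 72 at CT5 (lowest without SV443 or SV447), 189 to 297 at CT9, 4.1e+02 to 775 at CT13 (lowest without SV396, SV397 or SV424), 113 to 178 at CT17 and 38 to 74 at CT21. Rhythmic genes by Benjamini-Hochberg q were 5018 in control and 1396 in Bmal1iec-/- mice, and with 1 mouse left out of the JTK_cycle test 7244 to 7790 and 4094 to 4982. The change of rhythm was called for 136 genes, for 278 with all 48 mice, 84 with time as a factor, 52 without CT1, 75 without CT5, 42 without CT13, and 110 to 162 with 1 mouse left out.

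Fold changes that turned direction were small. The log2 fold change of *Ccnd1* was -0.0066 without CT1 and -0.0082 to 0.049 with 1 mouse left out. That of *Ccnd2* was 0.050 without CT13 and that of *Ccnb1* -0.016. *Arntl* had -0.055 with no time term, and *Per2* -0.11 with no time term, -0.066 without CT1 and -0.033 without CT5. At CT1 *Wee1* had 0.037 with all 48 mice, 0.022 with no filter, and -0.12 to 0.10 with 1 mouse left out.

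At CT17 the *Wee1* call was also lost with no filter (adjusted p = 0.226), and at CT9 it was gained without SV420 (0.0400). Its change of rhythm ran from adjusted p = 0.0345 to 0.131 with 1 mouse left out, passing without SV399, SV416, SV437, SV455 or SV471. By Benjamini-Hochberg q the rhythms of *Cdkn1a*, *Ccnd1* and *Gadd45a* in Bmal1iec-/- mice were at 0.0562 and that of *Gadd45a* in control mice at 0.107. A *Myc* rhythm was called in control mice without SV401, SV443 or SV447 (adjusted p down to 0.0106), and a *Ccne1* rhythm in Bmal1iec-/- mice without SV400 (0.0246). With no time term the *Cdkn2b* and *Cdc25b* calls were lost (adjusted p = 0.340 and 0.115).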

Other observations

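The values of 6 partners of the members are given here as a description. They were picked after their values were seen. *Ccnd3*, the D-type cyclin beside *Ccnd1* and *Ccnd2*, was rhythmic in control (JTK_cycle adjusted p = 2.6e-04) and Bmal1iec-/- mice (3.7e-05), with fitted peaks at 16.0 and 16.9 h. Its kinase partner *Cdk4* had no rhythm called in control or Bmal1iec-/- mice (adjusted p = 1.0 in both), with log2 amplitudes of 0.05 and 0.04. *E2f1*, which opens the genes of DNA synthesis, peaked at 20.8 h in control and 22.6 h in Bmal1iec-/- mice. The mitotic kinase gene *Cdk1* peaked at 3.34 and 4.96 h, the cyclin gene *Ccnb2* at 4.94 and 6.998 h, and *Aurka*, a kinase of the spindle, at 4.27 and 5.95 h. None of these 6 genes passed the genotype test or the change of rhythm in edgeR's quasi-likelihood test, in which the lowest adjusted p were 0.344 and 0.147, both for *Ccnb2*.

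*Bhlhe40*, a clock repressor, had amplitudes close to those of *Wee1* in each genotype, 0.38 in control and 0.09 in Bmal1iec-/- mice on the log2 scale, and its change of rhythm did not pass either (adjusted p = 0.115 in edgeR).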
